A study of Drosophila melanogaster with 46 samples.

Results

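The chromatin around 3 eye genes of Drosophila melanogaster, eyes absent (eya), dachshund (dac) and atonal (ato), was examined in 31 ATAC-seq libraries of eye-antennal discs. The regions were those of the deposited count table that lay wholly inside a window around each gene on dm3, namely 2L:6515000-6560000 for eya, 2L:16455000-16500000 for dac and 3R:4085000-4115000 for ato. This gave 18, 15 and 12 regions, 45 of 30774 in all. ATAC-seq uses the Tn5 transposase to cut and tag open DNA, so the count of a region measures how accessible it was in the tissue.

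The tissue came from wandering larvae of inbred DGRP lines, which are strains derived from a wild population, raised on normal food. Of 23 lines, 8 had 2 libraries and 15 had 1. The title of 15 libraries carries the suffix IR, written here as .IR, and that of the other 16 does not; the labels do not say what it means. Each line with 2 libraries had 1 of each kind. The series asks which loci differ in accessibility between strains. Another 15 samples, of Grainyhead ChIPmentation, of cells sorted for Optix-GFP and of discs with reporter insertions, were not analysed here. A disc is a mixture of eye, antennal and other cells, and in such bulk samples more cells with an open region and more open chromatin per cell cannot be told apart.

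In the larval eye disc, differentiation sweeps across the tissue behind a moving front, the morphogenetic furrow. eya encodes a protein phosphatase and transcriptional coactivator that works with the DNA-binding protein Sine oculis to give the tissue its eye identity. dac encodes a nuclear cofactor that acts with them, and it is also used in other parts of the body such as the leg. ato encodes a proneural basic helix-loop-helix factor that selects the founder photoreceptor of each ommatidium at the furrow. The expression of all of them is controlled by enhancers spread over the surrounding DNA, which is why the regions are described one by one. In the Release 6 gene table of RefSeq, eya lies between lncRNA:CR44775 and lncRNA:CR44776, dac between Idgf3 and Nepl8, and ato between CG9630 and lncRNA:CR44318. Which of the 45 regions is a promoter, an intron or an enhancer was not determined, since no dm3 annotation was used here.

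All 45 regions passed the filter on low counts. Their counts ranged from 3 to 3262 reads in a library, and 19 of 1395 values were under 10 reads, 11 of these in the shallowest library. Library totals ran from 1110755 (DGRP_25208) over a median of 6283136 to 12758783 (DGRP_28206). Levels below are CPM per kb of region (counts scaled to the library total by TMM and divided by the length), which allows regions of unequal length to be set side by side, and differences are on the log2 CPM scale.

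The 3 windows were similar in how much of their DNA was accessible. Regions covered 20.6% of the eya window, 21.5% of the dac window and 20.9% of the ato window. Windows of the same size laid end to end over the major arms held a median of 11 regions for eya and dac and 7 for ato, and at least as many regions as eya, dac and ato in 11.97%, 26.2% and 15.2% of them. The 45 regions had a median level of 44.7 CPM per kb, against 30.3 over all 30774 regions, and 33 of 45 lay above that overall median.

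Each window held 1 or a few regions that stood above the others. At eya this was 2L:6535906-6536539, with 191 CPM per kb in the lowest library (DGRP_28224), 226 in the median one and 306 in the highest (DGRP_29652.IR), a mean of 230 ± 27.6 (SD, n = 31). It was among the most even regions of the data, since the SD of its log2 CPM was 0.17, which is at percentile 1.45 of all regions. The other leading eya regions were 2L:6546781-6547333, which averaged 122 ± 33.3 CPM per kb (75.8 in DGRP_25208, median 116, 205 in DGRP_25208.IR), and 2L:6537739-6538214, which averaged 86.2 ± 21.8 (56.4 in DGRP_25194.IR, median 81.0, 141 in DGRP_28123.IR; SD, n = 31 each). The lowest and the highest library of the first of these 2 belonged to the same line, DGRP_25208.

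At dac the leading region was 2L:16485538-16487087, 1550 bp long, with 136 CPM per kb in the lowest library (DGRP_28265), a median of 178 and 268 in the highest (DGRP_29651), a mean of 181 ± 33.3 (SD, n = 31). The next was 2L:16477498-16478101 with a mean of 92.1 ± 18.3 CPM per kb (58.4 in DGRP_28265, median 90.0, 126 in DGRP_28262). The region 2L:16471085-16471776 averaged 54.95 ± 11.6 CPM per kb (34.6 in DGRP_25193.IR, median 54.6, 83.6 in DGRP_28260). Library DGRP_28265 was lowest at both of the leading dac regions.

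At ato no region stood as far above its neighbours. The leading one, 3R:4103439-4104034, averaged 106 ± 22.7 CPM per kb, with 37.3 in DGRP_25208, a median of 107 and 149 in DGRP_28202.IR. The region 3R:4095399-4096377 averaged 89.7 ± 12.7 CPM per kb (63.0 in DGRP_55031, median 89.6, 117 in DGRP_25208.IR). The region 3R:4090462-4090922 averaged 67.4 ± 9.39 CPM per kb (42.7 in DGRP_25208, median 67.4, 91.0 in DGRP_28262.IR). DGRP_25208 without the suffix, the shallowest library, was lowest at 2 of these 3 regions; its low value at the leading one rests on 26 reads.

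**Figure D1:**
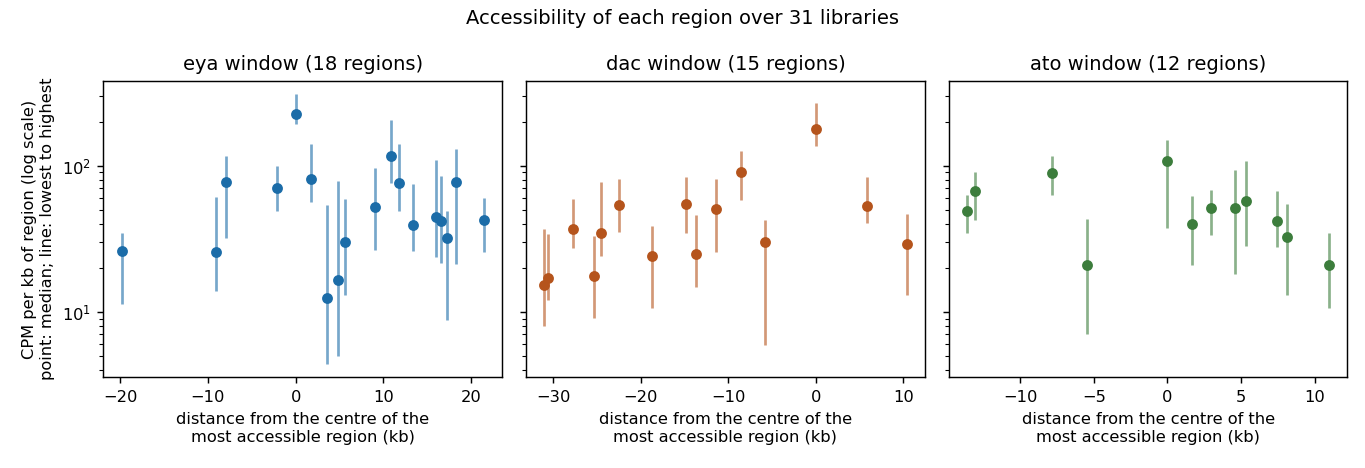
Level of each of the 45 regions over 31 libraries, in CPM per kb on a log axis, against the distance in kb from the centre of the most accessible region of its window. Points are medians and lines run from the lowest to the highest library. The eya region at 0 has the highest median (226 CPM per kb) and a short line, whereas the regions at 3.57 and 4.89 kb have low medians and the longest lines of the eya window.

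As a sum, the share of the reads differed between the lowest and the highest library by 1.53-fold at eya, 1.55-fold at dac and 1.83-fold at ato. The eya window held a median of 0.0652% of a library's counts, the dac window 0.0635% and the ato window 0.0384%, beside 0.0543%, 0.0567% and 0.0367% of the summed length of all regions. For eya the share ran from 0.0507% in DGRP_25208 (exact Clopper-Pearson 95% interval 0.0466% to 0.0551%) to 0.0774% in DGRP_28202.IR (0.0753% to 0.0796%). For dac it ran from 0.0527% in DGRP_28265 (0.0509% to 0.0545%) to 0.0815% in DGRP_25208 (0.0763% to 0.0870%). For ato it ran from 0.0246% in DGRP_25208 (0.0217% to 0.0277%) to 0.0449% in DGRP_25193.IR (0.0435% to 0.0465%). In each window the intervals of the 2 libraries did not overlap. These 2 were picked as the extremes of 31 libraries and the intervals cover counting error only, so this is no test. The same library, DGRP_25208 without the suffix, was lowest at eya and ato and highest at dac.

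Summed by line, DGRP_29651 was lowest and DGRP_28202 highest at both eya (9.11 and 9.66 log2 CPM) and ato (8.19 and 8.80). Each has 1 library, without the suffix in DGRP_29651 and with it in DGRP_28202. At dac, DGRP_28153 was lowest (9.12) and DGRP_25208 highest (9.57). The line order takes no account of the suffix or of the first component described below, on which DGRP_29651 had the highest score (69.7). Over the 31 libraries, Pearson's r of the window sum with that score was -0.76 at eya, -0.79 at ato and -0.13 at dac. Among the 20 libraries with the lowest scores it was -0.11, -0.13 and -0.44, and among the other 11 it was -0.66, -0.50 and 0.31. The within-line SD, from the 8 lines with 2 libraries, was 0.17 for eya, 0.15 for dac and 0.25 for ato, against an SD between line means of 0.13, 0.12 and 0.17. When the 23 lines were put in order, none of the 22 steps between neighbouring lines was larger than the within-line SD in any of the 3 windows, which says nothing of lines further apart in that order.

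Most of the dac and ato regions (12 of 15 and 8 of 12) varied less among libraries than the typical region of the table, against 9 of 18 eya regions. The median SD of log2 CPM over the 31 libraries was 0.44 for the eya regions, 0.35 for dac and 0.38 for ato, against 0.46 over all regions, and 29 of 45 lay below that overall median. The 45 regions also held more reads, since the median of their mean counts was 155, against 90.3 over all regions. How far the number of reads bears on the spread was not tested. The SD between line means exceeded the within-line SD in 20 of 45 regions (44.4%), against 39.1% of all regions.

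A few regions varied much more. The most variable was eya 2L:6540927-6541297, with 4.98 CPM per kb in DGRP_55031.IR (5 reads), a median of 16.6 and 78.5 in DGRP_55031 (128 reads), so that its lowest and highest values came from the same line (SD of log2 CPM 1.05). Its neighbour 2L:6539611-6539980, singled out after its values were seen and 946 bp away, had 4.41 CPM per kb in DGRP_25208.IR (5 reads), a median of 12.4 and 54.1 in DGRP_55031 (88 reads). At both regions the within-line SD (1.44 and 1.31) was larger than the SD between line means (0.81 and 0.65).

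Other regions with a large spread differed in which library lay at the ends. At eya 2L:6553295-6553658 (SD 0.60) the values ran from 8.73 CPM per kb in DGRP_29652 over a median of 31.9 to 49.1 in DGRP_28243. At dac 2L:16461236-16462250 (SD 0.44) they ran from 23.9 in DGRP_29651 over 34.4 to 77.3 in DGRP_28202.IR, and at dac 2L:16474629-16475111 (SD 0.35) from 25.8 in DGRP_28260.IR over 50.5 to 81.2 in DGRP_25199. At ato, the adjacent regions 3R:4108086-4108556 (SD 0.52; 18.2 in DGRP_25208, median 51.3, 93.6 in DGRP_29652.IR) and 3R:4108629-4109509 (SD 0.47; 28.4 in DGRP_55031, median 56.9, 107 in DGRP_29652.IR) shared their highest library.

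A pair of eya regions followed the main axis along which the libraries differ. The first principal component of log2 CPM was taken over 15359 regions outside the 3 windows, those with a mean log2 CPM above the median of the table. It held 40.0% of the variance of these regions. Its sign is set so that libraries with high scores have more reads at the regions that move most along it. Scores ran from -37.8 to 69.7, with a gap between 0.52 and 17.8 that left 11 libraries above it and 20 below. Of the 8 lines with 2 libraries, 5 had them on opposite sides of the gap. Over the whole range of scores, 2L:6540927-6541297 had a fitted change of 3.02 and 2L:6539611-6539980 one of 2.65 log2 units. The relation also held on each side: at 2L:6539611-6539980 Pearson's r with the score was 0.83 over the 11 libraries above the gap and 0.70 over the 20 below, and at 2L:6540927-6541297 it was 0.57 and 0.68. These r are descriptions over libraries that share a depth and a normalization, and carry no p.

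The rest of the eya window leaned the other way. Of 18 eya regions, 15 had a fitted change below 0, down to -1.08 at 2L:6554234-6554921 and -1.06 at 2L:6527934-6528529, and the same held for 11 of 15 dac regions and 12 of 12 ato regions, 38 of 45 in all (84.4%, against 64.1% of all regions). Only 2 of 45 regions (4.44%), the eya pair, were fitted at least 2-fold higher at the high end of the scores, against 21.9% of all regions, and 4 of 45 (8.89%) at least 2-fold lower, against 4.12%. Of these 38 regions, 34 also had an r with the score below 0 among the libraries above the gap and 22 among those below it. The r was closer to 0 or positive, compared with all libraries, in 28 of the 38 above the gap and in 37 below it. The region 2L:6533577-6534524, 2.17 kb on the other side of the leading region, had a fitted change of -0.69 and an r of -0.52 above and -0.18 below the gap. At dac the ends were 2L:16460733-16461087 with a fitted change of 0.94 and 2L:16477498-16478101 with -0.73, and the leading region changed by 0.34. At ato they were 3R:4108086-4108556 with -1.19 and 3R:4089844-4090382 with -0.21.

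**Figure D2:**
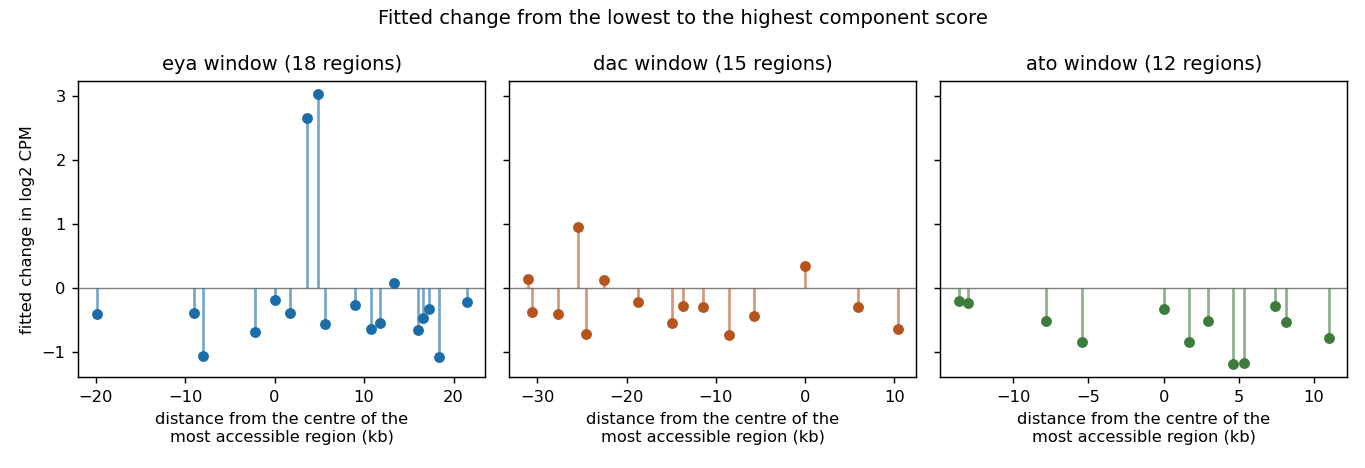
Fitted change in log2 CPM from the lowest to the highest score on the first component, for each region against its distance in kb from the most accessible region of its window. Both eya regions at 3.57 and 4.89 kb stand at 2.65 and 3.02, while all 12 ato regions lie below 0.

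**Figure D3:**
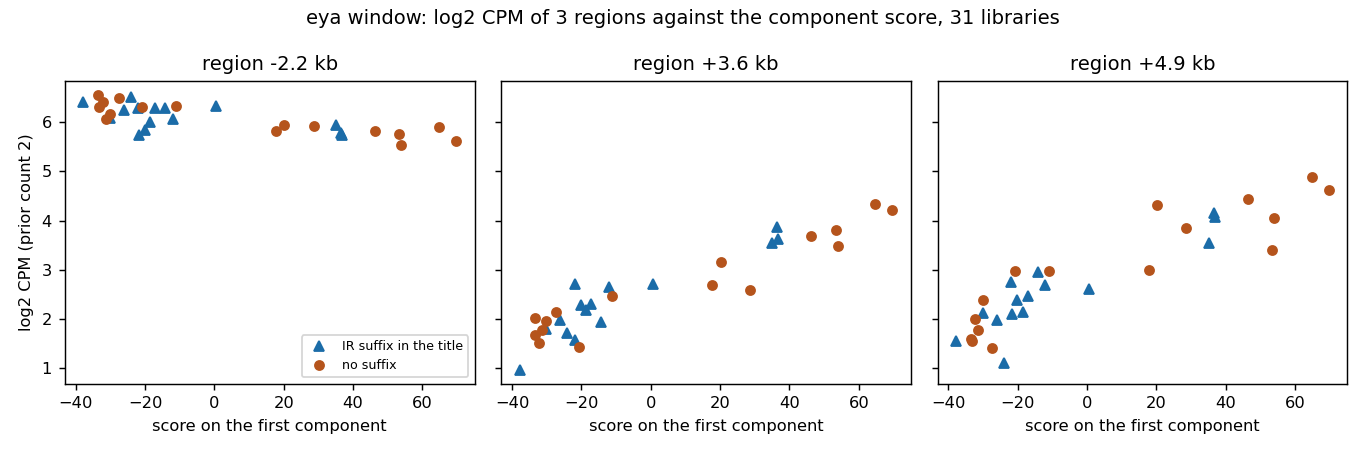
Log2 CPM of 3 eya regions, named by their distance from the most accessible one (-2.17, 3.57 and 4.89 kb), against the score of each of 31 libraries on the first component. Triangles are libraries with the IR suffix and circles those without; the region on the left slopes down weakly while the other 2 climb, with an empty stretch of scores between 0.52 and 17.8.

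In the 8 lines with 2 libraries, the eya pair differed strongly between the libraries of some lines, in either direction. At 2L:6540927-6541297, DGRP_55031 had 4.98 CPM per kb with and 78.5 without the suffix, and DGRP_29652 had 10.9 with and 57.4 without. DGRP_28260 ran the other way, with 44.3 with and 8.33 without the suffix. The neighbour 2L:6539611-6539980 followed in these 3 lines: DGRP_55031 had 8 reads with and 88 without the suffix, DGRP_29652 had 8.48 CPM per kb with and 33.8 without, and DGRP_28260 had 32.4 with and 8.35 without.

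No region of the 3 windows was called different between the lines. The edgeR quasi-likelihood test of all line terms called 0 of 45 at an adjusted p under 0.05, where 29 of 30773 regions (0.0942%) were called over the table; at an unadjusted p under 0.05 it was 1 of 45, against 7.68% of all. DESeq2 also called 0 of 45, against 1697 of all (5.51%). The smallest p at eya was that of 2L:6537739-6538214 (edgeR adjusted p = 0.568), at dac that of 2L:16455598-16455856 (edgeR adjusted p = 0.989) and at ato that of 3R:4111726-4112026 (edgeR adjusted p = 0.946). Only the 8 lines with 2 libraries inform the spread in this test (7 residual degrees of freedom), so a missed threshold does not show that the lines are alike.

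With the first component as a covariate, which raised the calls over the table to 3212 (10.4%), 1 of the 45 was called between lines. This was eya 2L:6553295-6553658 (edgeR adjusted p = 0.0320), the variable region with 8.73 to 49.1 CPM per kb. DGRP_28260 had 11.6 and 14.7 CPM per kb there with and without the suffix, on 19 reads each.

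Set against the mean of the other 22 lines, no line stood apart at any of the 45 regions either: 0 of 1035 tests were called by edgeR, where 983 of 707779 (0.139%) were over the table, and 38 of the 1035 had an unadjusted p under 0.05, against 5.19%. The 2 lines nearest to a call were DGRP_28123 and DGRP_25208. At eya 2L:6537739-6538214, DGRP_28123 had 141 CPM per kb with and 110 without the suffix, ranks 1 and 5 of the 31 libraries, and a line mean of 5.89 log2 CPM, inside the range of the other lines (4.76 to 6.01; log2 fold change 0.60, edgeR adjusted p = 0.200). At the leading ato region 3R:4103439-4104034, DGRP_25208 had 77.2 CPM per kb with and 37.3 without the suffix (141 and 26 reads), ranks 29 and 31, and a line mean of 5.01 log2 CPM, below all other lines (5.25 to 6.48; log2 fold change -0.91, edgeR adjusted p = 0.247).

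With the component as a covariate, 6 of these 1035 tests were called by edgeR (1.14% over the table). DGRP_28123 was higher at eya 2L:6537739-6538214 (log2 fold change 0.59, adjusted p = 0.0418) and DGRP_28260 lower at eya 2L:6553295-6553658 (-1.21, adjusted p = 0.0462). At the latter region the line mean of DGRP_28260 was 2.34 log2 CPM, inside the range of the other lines (2.17 to 4.18). DGRP_25208 was lower at the leading ato region (-0.86, adjusted p = 0.0358) and higher at dac 2L:16491263-16493146 (0.57, adjusted p = 0.0275), where its libraries had 84.2 CPM per kb with and 68.6 without the suffix, ranks 1 and 3. The line mean there was 7.16 log2 CPM, against 6.25 to 6.89 in the other lines. DGRP_28202 was higher at dac 2L:16461236-16462250 (0.94, adjusted p = 0.0342) and DGRP_25194 lower at dac 2L:16480421-16480668 (-2.35, adjusted p = 0.0308); each of these lines has a single library, and the low value of DGRP_25194 rests on 12 reads.

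DGRP_28243, with 1 library, was the highest line at several regions in each of the 3 windows. Among them were eya 2L:6533577-6534524 and 2L:6553295-6553658, dac 2L:16477498-16478101 and ato 3R:4105264-4105568. Its library had a score of -33.5 on the first component, near the lowest of all (-37.8). Pearson's r with the score over all libraries was -0.76, -0.18, -0.81 and -0.70 at these regions, in that order. How far the score bears on the rank of this line was not tested. DGRP_28243 stood furthest above the next line at 2 neighbouring eya regions. It had a line mean of 5.50 log2 CPM at 2L:6552002-6552413, where the next line had 4.68, and 5.04 at 2L:6552645-6553025, where the next had 4.47. Neither was called, and both were singled out after their values were seen.

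The suffix went with higher values at part of the eya and ato regions, without a call. The edgeR test within the 8 lines called 0 of 45 regions at an adjusted p under 0.05, where 9 of 30710 (0.0293%) were called over the table, all higher with the suffix. At an unadjusted p under 0.05 it was 11 of 45, 10 of them higher, against 17% of all regions. The fitted log2 fold change was above 0 in 11 of 18 eya regions, 8 of 15 dac regions and 12 of 12 ato regions, and the median paired difference of the 45 was 0.14, against -0.02 over all regions. With the component as a covariate the fold change was above 0 in 10 of 18 eya, 7 of 15 dac and 10 of 12 ato regions, and it changed sign in 12 of the 45, among them the eya pair that follows the component. The component and the suffix overlapped, since 3 of the 11 libraries above the gap in scores carried the suffix and 12 of the 20 below it did.

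Of the 45 regions, 3 were higher with the suffix in all 8 lines, all of them at eya (4.18% of all regions were). The region 2L:6545006-6545467 had 48.0 to 96.9 CPM per kb with the suffix (median 65.5) and 33.2 to 51.9 without it (median 41.1), a mean paired difference of 0.67 ± 0.11 log2 units (SE, n = 8 lines; edgeR adjusted p = 0.104). The difference was smallest in DGRP_55031, at 48.0 with and 47.8 without the suffix. The region 2L:6546781-6547333, the second most accessible of the window, had 105 to 205 CPM per kb with the suffix (median 149) and 75.8 to 117 without it (median 91.4), a mean paired difference of 0.67 ± 0.17 (edgeR adjusted p = 0.126), from 0.10 in DGRP_28123 to 1.43 in DGRP_25208. The region 2L:6557386-6558067 had 35.7 to 60.0 CPM per kb with the suffix (median 48.2) and 25.8 to 43.1 without it (median 37.3), a difference of 0.43 ± 0.06 (edgeR adjusted p = 0.144). Libraries with and without the suffix overlapped in all 3 regions.

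DESeq2 called these same 3 eya regions (adjusted p = 0.00241, 0.00815 and 0.0321 in the order above) among 1070 over the table (3.48%). With the component as a covariate edgeR called the first 2 (adjusted p = 0.0113 and 0.0311) among 1363 (4.44%). The call thus depended on the test.

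At dac the smallest p for the suffix was that of 2L:16491263-16493146, at 44.1 to 84.2 CPM per kb with it (median 58.3) and 40.8 to 68.6 without it (median 49.1), higher in 6 of 8 lines (0.29 ± 0.10 log2 units, edgeR adjusted p = 0.233). The region 2L:16474629-16475111 ran the other way, at 25.8 to 74.3 CPM per kb with the suffix (median 45.3) and 46.0 to 67.9 without it (median 55.5), higher in 2 of 8 lines (-0.32 ± 0.14, edgeR adjusted p = 0.255). At ato it was 3R:4105264-4105568, at 34.5 to 61.9 CPM per kb with the suffix (median 42.2) and 20.8 to 50.6 without it (median 27.8), higher in 7 of 8 lines (0.48 ± 0.18, edgeR adjusted p = 0.269). The groups overlapped at all 3 regions.

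**Figure D4:**
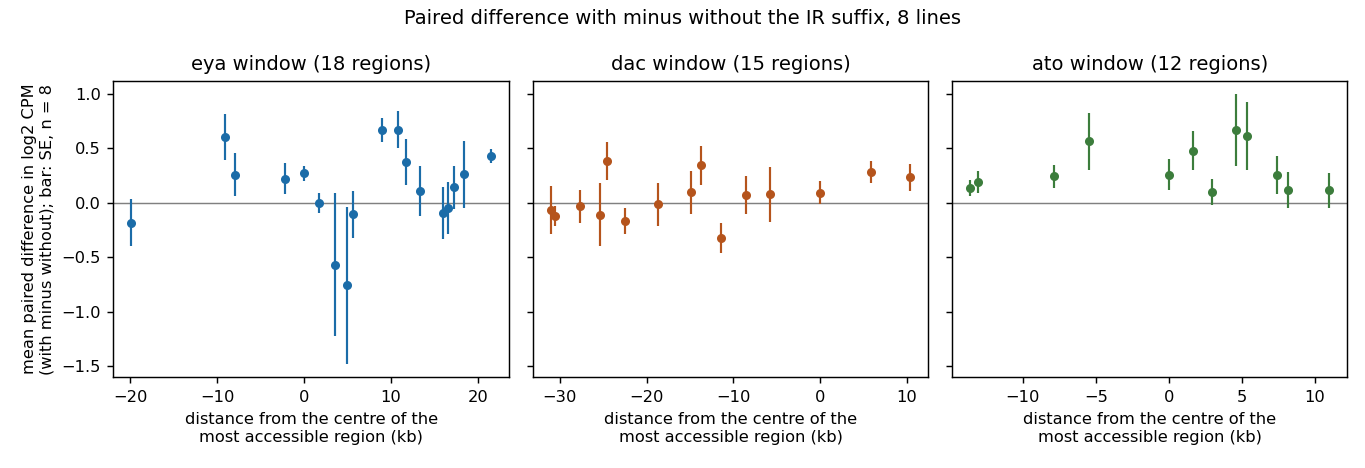
Mean paired difference in log2 CPM of the libraries of 8 lines, with minus without the IR suffix, for each region against its distance in kb from the most accessible region of its window; bars are SE (n = 8). The eya regions at 9.01 kb and next to it stand at 0.67, the eya pair at 3.57 and 4.89 kb has the widest bars, and all ato points lie above 0.

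Summed over a window, the libraries with the suffix averaged 9.44 log2 CPM at eya and those without it 9.17, a difference of 0.27 that was positive in 7 of 8 lines (-0.03 in DGRP_28123 to 0.63 in DGRP_25208). At ato the averages were 8.64 with and 8.34 without the suffix (7 of 8 lines), and at dac 9.39 with and 9.29 without (5 of 8 lines).

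The eya and ato windows went up and down together over the libraries. Between eya and ato, Pearson's r of the summed log2 CPM was 0.84 over the 11 libraries above the gap in scores and 0.71 over the 20 below. Between eya and dac it was -0.25 and 0.59, and between dac and ato -0.24 and 0.32. Over all 31 libraries with the component removed, r was 0.67 for eya and ato, 0.23 for eya and dac, and -0.03 for dac and ato. All these values share the libraries and their scaling.

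Single regions in different windows were compared as well, and the pairs with the highest r between windows are given here. The eya region 2L:6547546-6548389 and the ato region 3R:4108629-4109509 had an r of 0.84 above and 0.85 below the gap, and 0.84 over all 31 libraries with the component removed. The eya region 2L:6546781-6547333 had an r with that ato region of 0.59 and 0.73, and the dac region 2L:16461236-16462250 one of 0.59 and 0.67. Between eya and dac the highest r was that of 2L:6546781-6547333 and 2L:16461236-16462250, which had 0.78 below the gap but 0.14 above it. These pairs were chosen after their values were seen. For comparison, the adjacent ato regions 3R:4108086-4108556 and 3R:4108629-4109509, 72 bp apart, had an r of 0.69 and 0.69.

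Within the windows, ato had the largest share of pairs of regions that went together. Of its 66 pairs of regions, 24 had an r above 0.5 over the 31 libraries and 1 was below 0, whereas 22 of 153 eya pairs were above 0.5 and 69 below 0, and 3 of 105 dac pairs were above 0.5 and 39 below 0. At a distance of 5 to 20 kb the mean r was 0.42 for ato (41 pairs), 0.04 for eya (90 pairs) and 0.08 for dac (60 pairs), against 0.16 over all regions; with the component removed it was 0.20, 0.03, 0.05 and 0.13. The pairs of a window share regions and libraries and are not independent.

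Several named pairs went together on both sides of the gap. In eya, 2L:6545006-6545467 and 2L:6546781-6547333, the 2 eya regions with the largest positive suffix differences, had an r of 0.63 above and 0.73 below the gap, and 2L:6552002-6552413 and 2L:6552645-6553025 had 0.87 and 0.83. The eya pair that followed the component had 0.64 and 0.48, and 0.14 over all libraries once the component was removed. In dac, the leading region and 2L:16491263-16493146, 4175 bp apart, had 0.71 and 0.61. In ato, the leading region and 3R:4110947-4111379, 6912 bp apart, had 0.80 and 0.69.

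**Figure D5:**
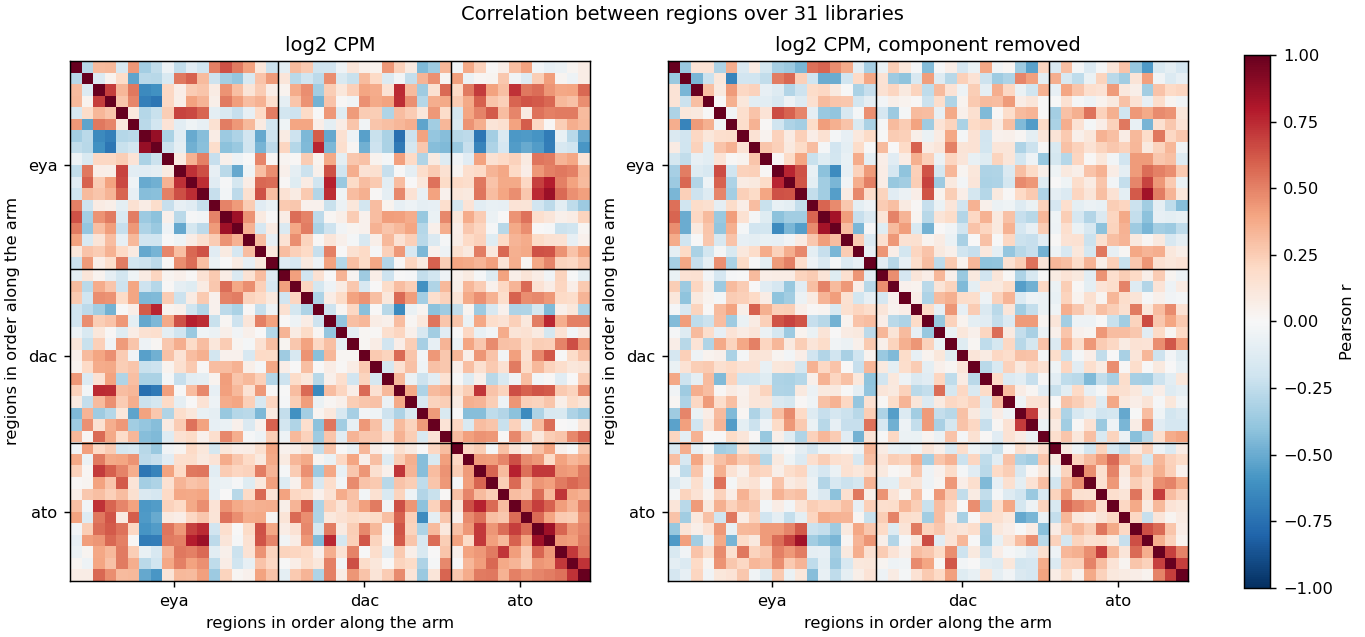
Pearson's r over 31 libraries between all pairs of the 45 regions, in order along each window, before (left) and after (right) removal of the first component. Red is positive and blue negative; the ato block is almost wholly red on the left, with 1 of 66 pairs below 0, and the 2 rows of blue in the eya block are the pair that follows the component.

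Regions elsewhere in the genome also followed the window sums. Among 21592 regions at least 100 kb from the windows and with a mean count of 50 or more, the most like eya over the 31 libraries was 2R:3926366-3927048 (r = 0.87 above and 0.80 below the gap). The most like dac was 2R:18129367-18129896 (0.93 and 0.80), followed by 2L:16269053-16269964 on the same arm (0.91 and 0.84). The most like ato was 2R:13526316-13526956 (0.87 and 0.51), followed by 2L:11061827-11062509 (0.83 and 0.74). They were ranked by this likeness over all libraries, and the r is given as a description.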

How the data were processed

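Per the labels' protocols, discs were dissected by hand and processed for ATAC-seq; per the submitters' processing notes, the tools were featureCounts, Bowtie2, DESeq2 and MACS2, without versions, on dm3. What the authors deposited is a table of raw read counts for merged regions, with a column for each library. How duplicates, multiply matching reads and the transposase offset were handled is not given in the sources; each can move counts in repeats or at region edges. Coordinates are printed as deposited.

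Counts were fitted over the whole table with edgeR 4.0.16 in R 4.3.3 (TMM, robust quasi-likelihood F-tests, Benjamini-Hochberg over all regions tested, threshold 0.05). Regions needed the CPM worth 10 counts at the median library in at least 2 libraries. Lines were tested together in 31 libraries with a suffix term; the suffix in the 16 libraries of 8 lines with the line as a block. Each line was set against the mean of the other 22, adjusted within each contrast. DESeq2 1.42.0 and limma 3.58.1 served as alternatives. Log2 CPM carries a prior count of 2. The fits were tested on simulated data, drawn as independent counts without a component shared by the libraries, so the simulation does not cover that feature of the data.

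The 2 libraries of a line are paired by its name. Their deviations from the suffix means correlated with r from -0.52 to 0.44, and their counts differed beyond sampling noise (chi-square per degree of freedom 8.52 to 29.4). Whether they were dissected separately is not in the labels, so a p-value here reflects only library-to-library spread, which may be technical. Intervals cover counting error only.

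Regions named were, per window, the 3 with the highest level, the 2 with the largest SD among those with a mean count of 50 or more, that with the smallest p in each test, and any called; others are marked as chosen after their values were seen, or were taken as extremes. The windows, lists and tests were chosen with earlier results of these data known. A motif search and a list of pathway genes were not run, since no sequence and no dm3 annotation were used here; for the same reason the tissue was not checked against marker genes.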

Additional observations from a re-analysis of the deposited data

Results flagged for a closer look

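Over 69 sets of 8 values of the named regions, in the lines with 2 libraries, 6 held 1 value far from the other 7 by Dixon's criterion. For independent sets chance gives about 1 set in 20. The sets here are not independent, since they hold values with the suffix, values without it and their differences. Several regions were also named for their spread or their p, so the count is no test.

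Among these 8 lines, DGRP_25208 was lowest at the leading ato region 3R:4103439-4104034 in both of its libraries. It had 5.53 log2 CPM with the suffix, where the next of the 8 was 5.93, and 4.50 without it, where the next of the 8 was 5.59. Over all 31 libraries it was less far apart, since DGRP_25187, a line with 1 library, had 63.2 CPM per kb there and ranked below DGRP_25208.IR with 77.2. At ato 3R:4105264-4105568, DGRP_28262.IR was far above the other 7 libraries with the suffix of these lines, at 4.26 log2 CPM against 3.79 for the next.

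At eya 2L:6545006-6545467 the difference between libraries with and without the suffix was 0.00746 log2 units in DGRP_55031 and at least 0.61 in the other 7 lines. At eya 2L:6553295-6553658 it was 1.38 in DGRP_29652, where the next line had 0.31. At dac 2L:16455598-16455856, DGRP_28262 without the suffix had 2.72 log2 CPM, where the next of the 8 lines had 2.35; DGRP_28224, a line with 1 library, was higher than both, at 34.3 CPM per kb.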

How the results depend on the processing

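Between lines, no region was called under 12 of 13 alternatives (normalization, filter, DESeq2, limma voom, threshold, suffix term, libraries, X to autosome ratio and window edges among them). The filter at a mean count of 50 tested 36 of the 45. Windows widened by 20000 bases a side held 85 regions, of which edgeR called 0 and DESeq2 4 (5.51% over the table). With the first component as a covariate 1 was called. Leaving out each of 16 libraries in turn gave 0 to 0 calls.

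For the suffix, DESeq2 called 3 regions and edgeR with the component as a covariate 2. Without the replicate block edgeR called 2 in the same 16 libraries, where 142 of 30710 were called over the table. In all 31 libraries it called 6, where 3691 of 30773 were called over the table. The pairing by line is by design. The other 6 alternatives gave 0, as did leaving out each of the 8 lines in turn with both of its libraries (0 to 0). All calls were higher with the suffix. DESeq2 gave 4 of the 45 no adjusted p. For 1 line against the others, the component as a covariate gave 6 calls and a filter at a mean count of 50 gave 0.

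Over arms 2L, 2R, 3L and 3R alone, the median shares were 0.0785%, 0.0777% and 0.0461% for eya, dac and ato, from the smaller denominator. For the suffix, each of the 8 lines was left out in turn with both of its libraries. The log2 fold change was then 0.60 to 0.78 at eya 2L:6545006-6545467, 0.22 to 0.30 at dac 2L:16491263-16493146 and 0.37 to 0.57 at ato 3R:4105264-4105568. For the test between lines, single libraries were left out in turn. The edgeR adjusted p between lines was 0.521 to 0.881 at eya 2L:6537739-6538214, 0.747 to 1 at dac 2L:16455598-16455856 and 0.704 to 1 at ato 3R:4111726-4112026. With the component as a covariate, the suffix fold change changed sign in 12 of 45 regions (smallest edgeR adjusted p 0.293); it stayed above 0 under each alternative in the 3 regions given above. With the component removed, the median SD of log2 CPM was 0.393 for eya, 0.338 for dac and 0.299 for ato, against 0.375 over all regions. Causes other than the smaller denominator were not tested. The 15 lines with 1 library give no spread of their own, and regions with few reads, such as the eya pair that follows the component, are limited by depth.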
